A study of Mus musculus with 8 samples.

Results

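The 44 genes described here are the nicotinic and muscarinic acetylcholine receptor genes, the enzymes and the chaperone that handle acetylcholine and its receptors, and the Ly6 prototoxin family. They were picked by gene symbol from the 22756 genes counted in every library, by a rule that uses no measured values: 16 nicotinic subunits (Chrn), 5 muscarinic receptors (Chrm), 19 genes named Ly6, Lypd, Lynx1 or Slurp1, and Ache, Bche, Chat and Ric3. The symbol for the vesicular acetylcholine transporter, Slc18a3, had no row. RNA-Seq was done on distal lung cells of adult mice that were over 90% C57BL/6, after lavage and magnetic removal of CD45+ cells to enrich epithelium. All mice carried an IRES-tauGFP reporter behind Chrna7. In α7G mice (genotype Chrna7-IRES-tauGFP) the receptor is otherwise normal, and α7E260A:G mice (Chrna7-E260A-IRES-tauGFP) also carry a point mutation that limits calcium passage through the α7 receptor. Mice of each genotype breathed side-stream cigarette smoke (CS) over 4 months, on 5 days of each week, or room air (control). There was 1 library of males and 1 of females in each of the 4 groups, 8 in all, and the number of mice in a library is not given in the sources used here.

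Nicotinic receptors are ion channels of 5 subunits that open when acetylcholine or nicotine binds. The α7 subunit, encoded by Chrna7, forms channels by itself and lets calcium through, whereas most other subunits combine in mixtures. Muscarinic receptors bind the same transmitter but signal through G proteins, and in the airway they drive smooth muscle contraction and gland secretion. Ly6 proteins are small, cysteine-rich and shaped like snake α-neurotoxins. Some of them, the prototoxins, bind nicotinic receptors and tune them: Lynx1 is anchored to the membrane next to the receptor and Slurp1 is secreted. Other Ly6 proteins are better known as surface markers, such as Ly6a (Sca-1) of progenitor and endothelial cells, Ly6c1 and Ly6c2 of endothelial cells and monocytes, Ly6d of B cell progenitors and squamous epithelium, and Ly6g of neutrophils.

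The total counts on coding sequence (CDS) were 8020726 to 10944100 per library, so that 3 counts equal 0.27 to 0.37 RPM (counts scaled to a library total of 1000000). Epithelial markers were abundant, with the 6 club cell transcripts summing to 20599 to 83763 RPM. Leukocyte transcripts were present too: Ptprc, which encodes CD45, read 771 to 1935 RPM, and 9 alveolar macrophage transcripts summed to 9403 to 39030 RPM. In such bulk samples, fewer cells of a type and less RNA per cell cannot be told apart. The libraries also differed in how counts depended on CDS length. Over the 1263 tested genes with a CDS of up to 500 bases, the median deviation in log2 units of a library from the average library ran from -0.71 in the α7E260A:G control male to 0.63 in the α7E260A:G control female, and was 0.41 and 0.36 in both α7G CS libraries against -0.42 and -0.13 in the α7G controls. This bears on the Ly6 genes, since the CDS of 10 of the 11 that were tested is 330 to 462 bases long. The comparisons were therefore also fitted with an offset that removes each library's trend with CDS length.

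Sequences for 2 points are shown. The first is the mutation that separates the genotypes. The mutated residue of the α7 receptor can be placed in the coding sequence of Chrna7 (ENSMUSG00000030525.6, chromosome 7 from 70243578 to 70357455, minus strand, NCBIM37), where codon 260 counted from the start codon is GAG, a glutamate codon. Bases 748 to 810 of the reference CDS (GENCODE M1) are given with this codon in capitals. The counts carry no sequence, so that the substitution itself was not examined.
Chrna7: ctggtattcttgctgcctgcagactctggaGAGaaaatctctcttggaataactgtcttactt

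The second is a pair of neighbouring genes on chromosome 15 that are hard to tell apart by short reads. Ly6c1 (ENSMUSG00000079018.3, chromosome 15 from 74875447 to 74879260) and Ly6c2 (ENSMUSG00000022584.8, chromosome 15 from 74938590 to 74942114), both on the minus strand, are 97.73% identical over 396 bases, with 9 differences. The first 120 bases hold 6 of these, shown in capitals.
Ly6c1: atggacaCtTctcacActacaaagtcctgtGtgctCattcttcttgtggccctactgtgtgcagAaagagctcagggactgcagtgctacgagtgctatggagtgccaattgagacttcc
Ly6c2: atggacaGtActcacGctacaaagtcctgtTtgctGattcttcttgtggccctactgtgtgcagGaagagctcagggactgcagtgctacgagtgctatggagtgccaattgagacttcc
Of all 50-base windows in these CDS, 46.7% of those in Ly6c1 and 47.5% of those in Ly6c2 also occur in a protein-coding transcript of another gene. The like share was 9.55% for Ly6a and 9.27% for Ly6i. The other tested members had none. How reads that match 2 genes were counted is not given in the sources used here, so the split of counts between Ly6c1 and Ly6c2 is uncertain. No member's CDS overlaps the CDS of another gene.

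Of the 44 genes, 27 had more than 3 counts in at least 1 library and 14 had more than 3 counts in all 8. The remaining 17 comprised 10 genes with no count in any library and 7 that never passed 3 counts. Among the nicotinic subunits 6 of 16 were above 3 counts in any library and 2, Chrnb1 and Chrne, in all 8. Chrna1, Chrna3, Chrna4, Chrna6, Chrna9, Chrnb3, Chrnd and Chrng had no counts, which allows up to 0.27 to 0.37 RPM in a library. The muscarinic receptors were above 3 counts for 4 of 5 genes, but in all 8 libraries only for Chrm3. The Ly6 family was the best represented, with 14 of 19 genes above 3 counts in any library and 11 in all. It held 0.118% to 0.275% of all counts in a library, against 0.001% to 0.002% for all nicotinic subunits together.

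**Figure D1:**
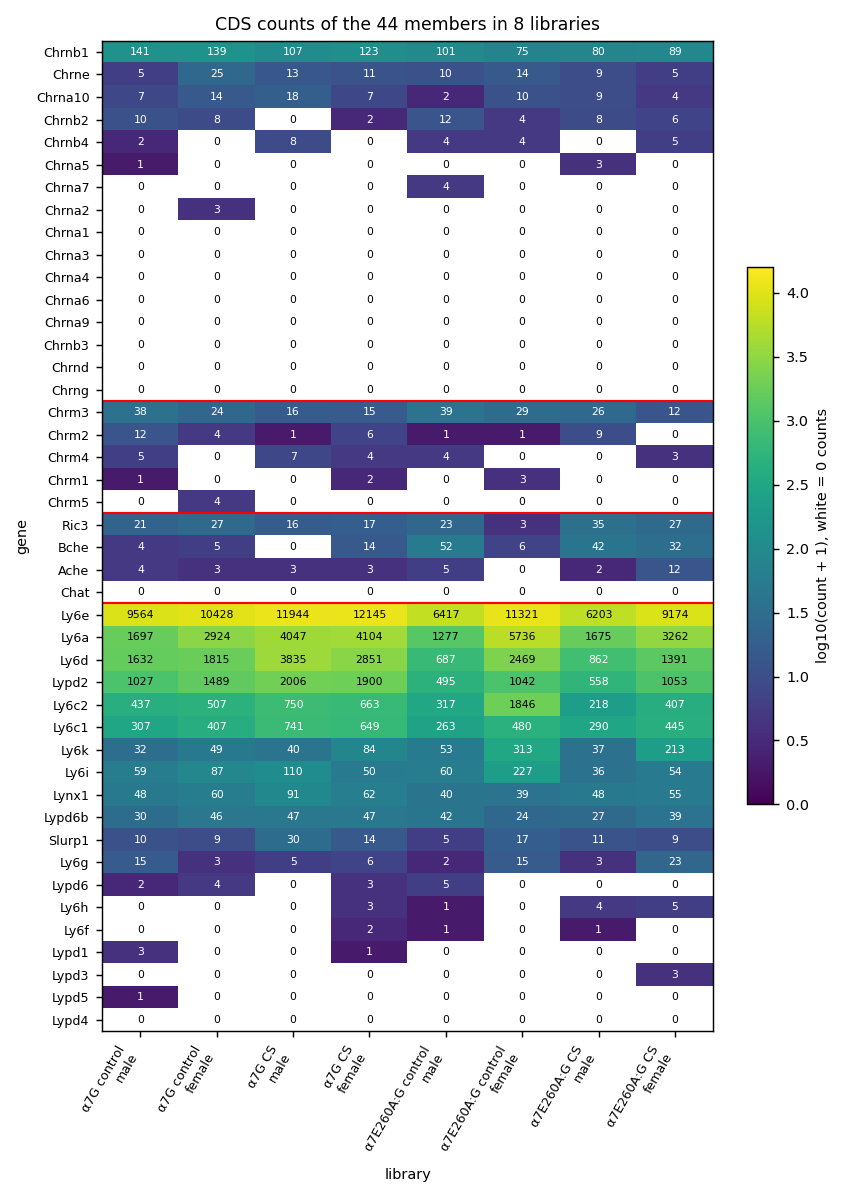
CDS counts of the 44 genes (rows, printed in each cell and coloured on a log10 scale) in the 8 libraries (columns), in 4 blocks for nicotinic subunits, muscarinic receptors, acetylcholine enzymes with the chaperone Ric3, and the Ly6 family. White cells are 0 counts. Chrna7 has 4 counts in a single library, whereas Ly6e has 6203 to 12145.

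Chrna7, the gene that carries the mutation and the reporter, had 4 counts in the α7E260A:G control male and 0 counts in each of the other 7 libraries. No comparison of its level between genotypes or exposures was possible at this depth. Its level therefore gives no check of the genotype labels. Counted per length, as RPM divided by the CDS length in kilobases (RPKM), the family spanned a wide range. Ly6e had the highest mean at 2643 RPKM ± 568 (SD over 8 libraries), followed by Ly6a at 839 ± 348, Ly6d at 567 ± 311, Lypd2 at 292 ± 139, Ly6c2 at 174 ± 114 and Ly6c1 at 128 ± 49.2. The ranges of neighbours in this order overlapped, except that the lowest Ly6e value, 1896 RPKM, lay above the highest Ly6a value, 1304 RPKM. Ly6k at 23.4 ± 20.9, Ly6i at 22.8 ± 13.3 and Lynx1 at 18.1 ± 5.83 RPKM came next. Chrnb1, the highest receptor subunit, was at rank 10 with 8.08 ± 2.13 RPKM, and Chrm3 at rank 15 with 1.60 ± 0.725 RPKM.

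A mean of 10 counts over the 8 libraries was set as the minimum for testing, and 16 of the 44 genes passed it among the 13637 genes tested. These are 2 nicotinic subunits, Chrnb1 and Chrne, the muscarinic receptor Chrm3, the enzyme Bche, the chaperone Ric3 and 11 Ly6 genes. A gene was called changed when its adjusted p, from edgeR quasi-likelihood fits and adjusted by Benjamini-Hochberg over all genes tested, was under 0.05. None of the 16 was called in any of the 5 comparisons. Between genotypes 0 of 16 were called, with 0.0953% of all genes tested called, and 4 of the 16 had an unadjusted p under 0.05, where 11.4% of all genes did. For CS over both genotypes and for CS in α7G the count was 0 of 16 with 0.0% of all genes called and 1 gene at unadjusted p under 0.05 in each, a level reached by 7.64% and 6.71% of all genes. For CS in α7E260A:G it was 0 of 16 with 0.00733% of all genes called and 2 at unadjusted p under 0.05 (3.14% of all genes), and for the difference of the CS response between genotypes 0 of 16 with 0.0% of all genes called and 1 at unadjusted p under 0.05 (2.18% of all genes). DESeq2 also called 0 of the 16 in each comparison.

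Among the nicotinic subunits, Chrnb1 was lower in α7E260A:G than in α7G in every library. It encodes the muscle-type β1 subunit (ENSMUSG00000041189.9, chromosome 11 from 69597538 to 69609445). In α7G it read 17.0 RPM in the control male, 14.8 in the control female, 12.5 in the CS male and 13.9 in the CS female. In α7E260A:G it read 12.3 RPM in the control male, 6.85 in the control female, 9.97 in the CS male and 9.85 in the CS female. The genotypes did not overlap, and all 4 pairs of the same sex and exposure were lower in α7E260A:G. The log2 fold-change was -0.51 (95% interval -1.01 to -0.002), and it missed the threshold with edgeR (adjusted p = 0.434). Non-overlap of the 4 and 4 libraries in RPM held for 3 of the 16 genes, Chrnb1, Ly6e and Lypd2, all lower in α7E260A:G, where 7.88% of all genes tested did not overlap in either direction. After TMM scaling only Chrnb1 of the 16 did not overlap, as did not 7.5% of all genes tested. After removal of the length trend it was Chrnb1, Ly6d and Lypd2, with 10.4% of all genes tested. Being lower in all 4 pairs held for 4 of the 16 genes (Chrnb1, Ly6e, Lynx1 and Lypd2), against 15.5% of all genes tested.

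The other detected subunits were near the limit of counting. Chrne, the ε subunit of the adult muscle receptor, had 5 to 25 counts and showed no order by group, and its log2 fold-change between genotypes of -0.49 had an interval from -1.81 to 0.84. Chrna10, best known from cochlear hair cells where it pairs with α9, had 2 to 18 counts. Chrnb2 and Chrnb4, partners of α3 and α4 in neurons, had 0 to 12 and 0 to 8 counts. Chrna5 and Chrna2 never passed 3 counts. Both α7G CS libraries had the fewest Chrnb2 counts, 0 in the male and 2 in the female against 4 to 12 in the other 6, all within a few counts of 0. The groups of Chrne, Chrna10 and Chrnb4 overlapped.

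Of the muscarinic receptors, Chrm3, the receptor of airway smooth muscle and glands, was the best counted with 12 to 39 counts. It read 4.57 RPM in the α7G control male, 2.56 in the α7G control female, 1.86 in the α7G CS male and 1.69 in the α7G CS female. In α7E260A:G it read 4.75 RPM in the control male, 2.65 in the control female, 3.24 in the CS male and 1.33 in the CS female. It was lower with CS in all 4 pairs of the same sex and genotype, although control and CS values overlapped. Of all genes tested, 43.7% were lower with CS in both sexes of α7G and 19.4% in both sexes of α7E260A:G. In α7G the fitted change of Chrm3 with CS was -0.85 in log2 (interval -2.17 to 0.47, adjusted p = 0.639 with edgeR). None of the 16 genes was free of overlap between the 4 control and the 4 CS libraries in RPM, where 2.77% of all genes were. Chrm2, the receptor that restrains acetylcholine release, had 0 to 12 counts, Chrm4 0 to 7, Chrm5 4 in the α7G control female alone, and Chrm1 at most 3.

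The genes that make and destroy acetylcholine were sparse. Chat, which synthesizes it, had no counts in any library, and Ache, which cleaves it at synapses, had 0 to 12. Bche, the butyrylcholinesterase that also cleaves other choline esters, was higher in α7E260A:G in 4 of 4 pairs, as were 6.72% of all genes tested. It read 0.481 RPM in the α7G control male, 0.534 in the α7G control female, 0 in the α7G CS male and 1.58 in the α7G CS female. In α7E260A:G it read 6.34 RPM in the control male, 5.24 in the CS male and 3.54 in the CS female, whereas the control female read 0.548 and lay within the range of α7G. The counts behind these values are 0 to 14 in α7G and 6 to 52 in α7E260A:G. The log2 fold-change between genotypes was 2.58 (interval 0.37 to 4.78) and was not called (adjusted p = 0.335 with edgeR).

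Ric3, a chaperone of the endoplasmic reticulum that helps α7 and other nicotinic subunits fold, had 16 to 35 counts in 7 libraries and 3 in the α7E260A:G control female. In RPM it was lower with CS in both sexes of α7G, from 2.53 to 1.86 in males and from 2.88 to 1.92 in females, and higher in both sexes of α7E260A:G, from 2.80 to 4.36 in males and from 0.274 to 2.99 in females. The difference of the CS response had a log2 value of 1.69 (interval -0.92 to 4.31) with an adjusted p of 1.00 by edgeR, and the interval includes 0.

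**Figure D2:**
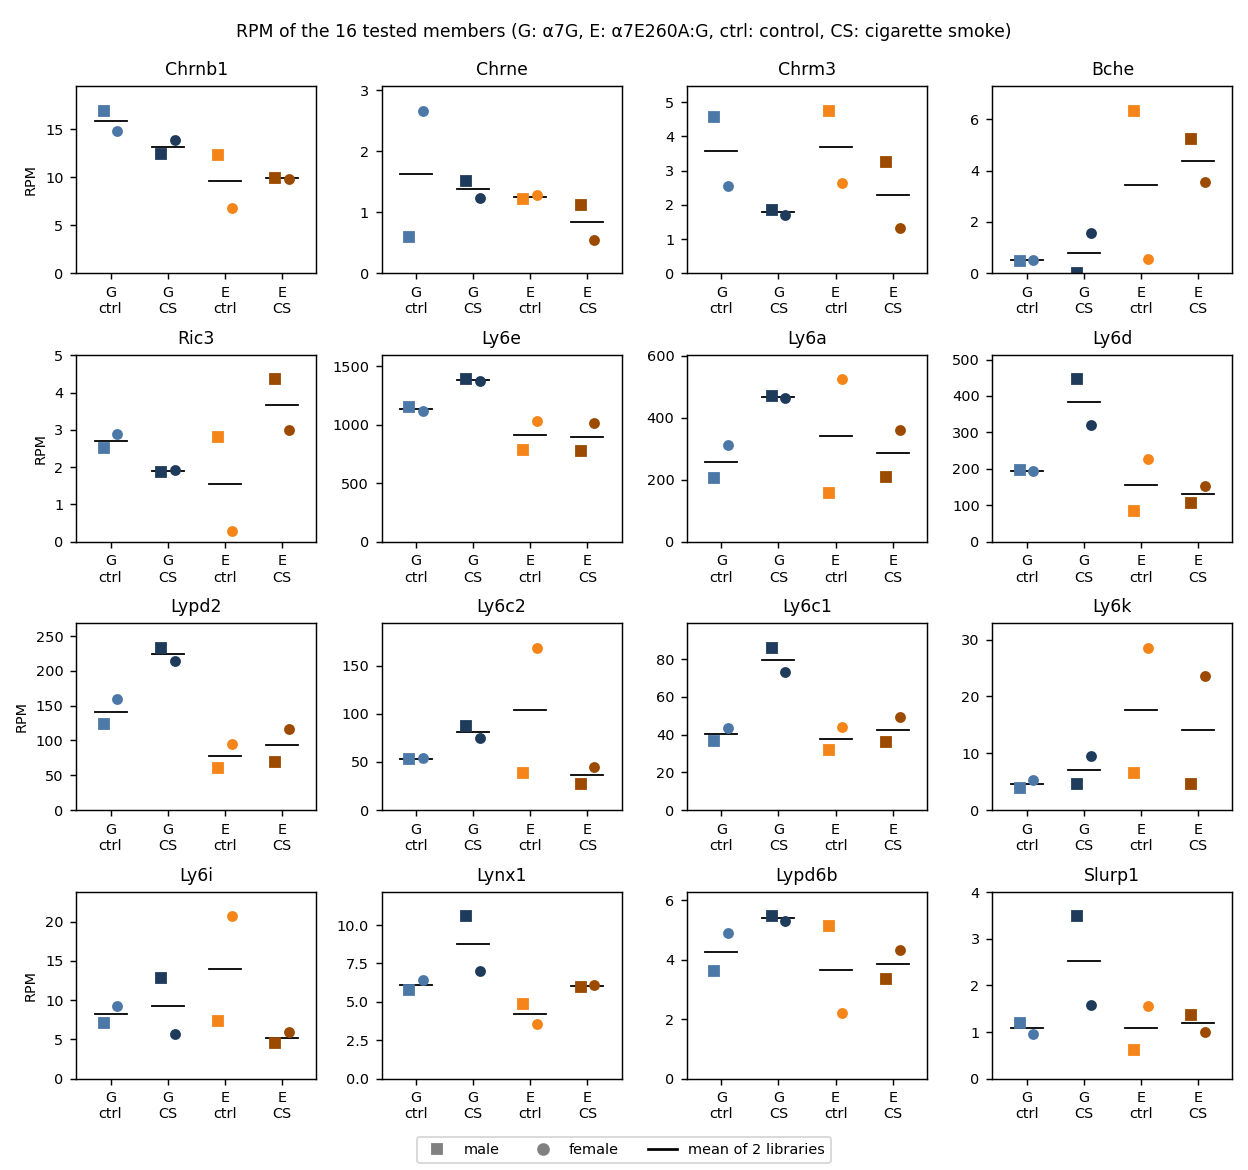
RPM of the 16 tested genes in each library (y axis from 0 in every panel) by group (x axis). Squares are male and circles female libraries, and the bar is their mean. Chrnb1 and Lypd2 show no overlap between the genotypes, and the α7E260A:G control female is the highest circle for Ly6c2 at 169 RPM and Ly6k at 28.6 RPM.

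Of the 11 tested Ly6 genes, 10 were higher in RPM with CS in both sexes of α7G. So were 62.7% of the tested genes with a CDS of up to 500 bases, and removal of the length trend left 6 of the 11. Ly6d and Lypd2 were lower in α7E260A:G than in α7G once the length trend was removed. Of these 11 genes, 10 lie on chromosome 15 between 74549460 and 74942114 in a row that runs Lypd2, Slurp1, Lynx1, Ly6d, Ly6k, Ly6e, Ly6i, Ly6a, Ly6c1 and Ly6c2, and Lypd6b lies on chromosome 2.

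Lypd2 (ENSMUSG00000022595.5, chromosome 15 from 74549460 to 74564743) gave the lowest adjusted p of the 16 genes between genotypes. It read 123.5 RPM in the α7G control male, 159 in the α7G control female, 233 in the α7G CS male and 214 in the α7G CS female. In α7E260A:G it read 60.3 RPM in the control male, 95.2 in the control female, 69.6 in the CS male and 116 in the CS female. All 4 values of α7E260A:G lay below all 4 of α7G. The log2 fold-change was -0.94 (interval -1.64 to -0.24) and was not called without the offset (adjusted p = 0.267 with edgeR). With the CDS length offset Lypd2 fell by 0.92 on the log2 scale (adjusted p = 0.0108), in a fit that called 3.56% of all genes. The 6 club cell transcripts summed to 51903 to 83763 RPM in α7G and 20599 to 53009 RPM in α7E260A:G, and all 6 had a lower fitted value in α7E260A:G, none of them called. Their part in the Lypd2 difference was not tested.

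Ly6d (ENSMUSG00000034634.6, chromosome 15 from 74592486 to 74593997) showed a similar order of groups. It read 196 RPM in the α7G control male, 194 in the α7G control female, 446 in the α7G CS male and 322 in the α7G CS female, against 83.7, 226, 107 and 154 RPM in the α7E260A:G control male, control female, CS male and CS female. The α7E260A:G control female was the 1 library of its genotype that overlapped with α7G. The log2 fold-change between genotypes was -0.80 without the offset (adjusted p = 0.502) and with the offset Ly6d fell by 0.85 (adjusted p = 0.0295, edgeR). B cell genes were also lower in RPM in α7E260A:G. Ms4a1 read 220 to 316 RPM in α7G and 102 to 133 in α7E260A:G, Cd79a 343 to 726 and 194 to 292, Cd79b 339 to 578 and 137 to 255, and Blk 63.3 to 105 and 28.2 to 49.995, whereas Pax5 overlapped at 21.8 to 47.4 and 9.07 to 25.8. The part of B cells in the Ly6d difference was not tested.

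The genotype comparison depended on which library was left out, and not on the α7E260A:G control female alone. Leaving out either α7E260A:G control library moved the fitted values. Without the α7E260A:G control female, edgeR called 3 of the 16 genes and 4.74% of all genes. These were Bche, higher by 3.003 on the log2 scale (adjusted p = 0.0478), Ly6d, which fell by 1.38 (adjusted p = 0.0174), and Lypd2, which fell by 1.24 (adjusted p = 0.0336). Without the α7E260A:G control male the same 3 had log2 values of 1.43, -0.49 and -0.73. Either fit leaves a lone library in the α7E260A:G control group, so calls cannot be compared between these fits.

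**Figure D3:**
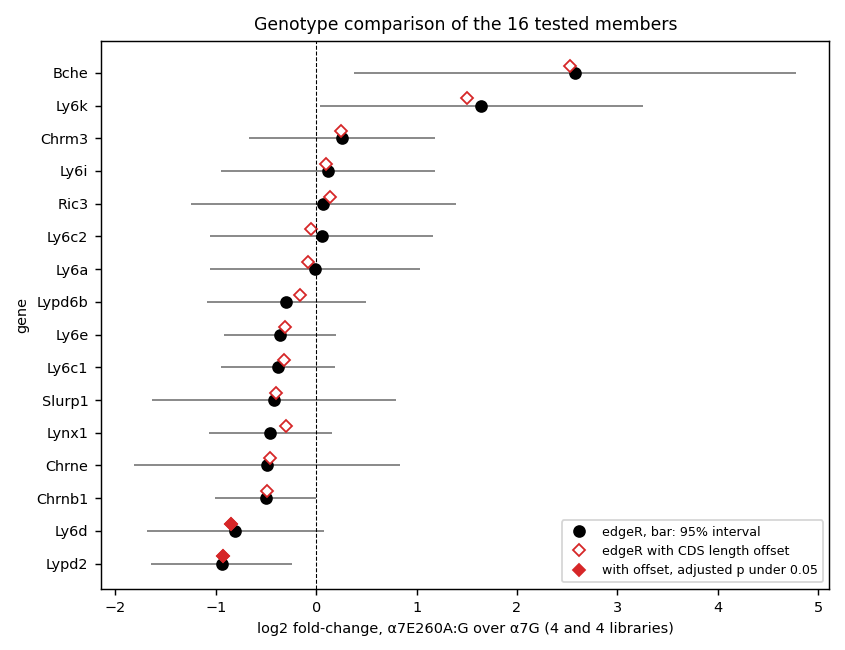
Log2 fold-change of α7E260A:G over α7G (x axis, 4 and 4 libraries) for the 16 tested genes (y axis). Black points with bars are edgeR estimates with 95% intervals, and red diamonds are estimates with the CDS length offset, filled where the adjusted p was under 0.05, which holds for Ly6d at -0.85 and Lypd2 at -0.92.

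Ly6k, which is mostly known from testis and some tumors, was high in both female libraries of α7E260A:G. It read 3.85 to 9.48 RPM in the 4 libraries of α7G and 6.46 and 4.61 RPM in the male control and CS libraries of α7E260A:G, but 28.6 and 23.6 RPM in the female control and CS libraries. The log2 fold-change between genotypes was 1.64 (interval 0.03 to 3.25, adjusted p = 0.425 with edgeR). Among the alternatives run it was called only with both the sex of the library as a replicate block and the length offset, at 1.34 (adjusted p = 0.0397), in a fit that called 5.24% of all genes. With 1 library per sex and group the difference between sexes has no replicate within a group.

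In α7G, 10 of the 11 tested Ly6 genes were higher with CS in both sexes, all but Ly6i. The same held for 26.4% of all genes tested and for 62.7% of the 1263 tested genes with a CDS of up to 500 bases. The median ratio of CS to control, with 0.5 RPM added to each value, was 1.77 in males and 1.38 in females over the 11 genes, 1.52 and 1.31 over genes with a short CDS, and 0.900 and 0.937 over all genes tested. Removal of the length trend left 6 of the 11 higher in both sexes, Ly6a, Ly6c1, Ly6c2, Ly6d, Lypd2 and Slurp1, where 31.6% of all genes were. In α7E260A:G, 3 of the 11 were higher with CS in both sexes and 4 lower in both, where 33.5% of all genes tested were higher and 19.4% lower.

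The abundant members show the size of this. Ly6a (ENSMUSG00000075602.4) went from 204 to 471 RPM in males and from 312 to 463 RPM in females of α7G with CS. With the length trend removed these steps of Ly6a were smaller, from 246 to 361 in males and from 318 to 379 in females. In α7E260A:G it went from 156 to 209 RPM in males and from 524 to 361 RPM in females, so that the directions of the sexes were opposite. Ly6e, which encodes a widely expressed, interferon-inducible surface protein, read 1150.3 and 1113 RPM in the α7G controls and 1390.0 and 1370.1 RPM with CS in males and females. In α7E260A:G Ly6e was 782 and 1034 RPM in controls and 773 and 1015 RPM with CS. In RPM the values with CS in α7G lay above those of the other 6 libraries for Ly6e. With the length trend removed this order was lost: in α7G Ly6e read 1379.5 in the control male and 1069 in the CS male, and 1133 in the control female and 1125 in the CS female, and the fitted log2 value for CS turned from 0.42 to -0.20. A list of 10 other interferon-inducible genes summed to 499 and 504 RPM in the α7E260A:G CS libraries and 548 to 661 RPM in the other 6.

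Ly6c1 came nearest to a call for CS in α7G. It read 36.9 RPM in the control male, 43.4 in the control female, 86.2 in the CS male and 73.2 in the CS female of α7G, and 32.0, 43.9, 36.2 and 49.2 RPM in the same order in α7E260A:G. Both α7G CS libraries lay above all 6 others. The log2 fold-change was 1.12 (interval 0.31 to 1.94, unadjusted p = 0.0133 and adjusted p = 0.639 with edgeR), and with the length offset it was 0.50. When only the 4 α7G libraries were fitted, without the length offset, edgeR called 7.19% of all genes and 4 of the 16, Ly6a at 0.97, Ly6c1 at 1.10, Ly6d at 1.10 and Lypd2 at 0.78. The CDS of these genes is 381 to 459 bases long, and this fit was not repeated with the offset. In the fit of all 8 libraries with the offset, 0 of the 16 and 0 of all genes were called for CS in α7G. The endothelial list of 10 genes summed to 720 and 770 RPM in the α7G controls and 857 and 986 RPM with CS, against 330.5 to 789 RPM in α7E260A:G. Its 10 genes all had a fitted value above 0 for CS in α7G without the length offset, none called. These log2 values ran from 0.0026 for Tek and 0.030 for Pecam1 to 1.39 for Egfl7. In RPM, Pecam1 and Tek were lower with CS in both sexes of α7G. The part of the endothelial list in the Ly6c1 and Ly6a values was not tested.

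For the smaller prototoxins the counts set the limit. Lynx1, the membrane-bound brake on nicotinic receptors, had 39 to 91 counts. It read 5.77 and 6.40 RPM in the α7G control male and female, 10.6 and 6.99 with CS, 4.87 and 3.56 in the α7E260A:G controls and 5.98 and 6.08 with CS. It was higher with CS in 4 of 4 pairs, but the fitted log2 value of 0.66 in α7G was -0.02 with the length offset. Of all genes tested, 26.4% were higher with CS in both sexes of α7G and 33.5% in both sexes of α7E260A:G. Slurp1, the secreted prototoxin, had 5 to 30 counts and a log2 value with CS in α7G of 1.35 (interval -0.34 to 3.05). Lypd6b had 24 to 47 counts and a value of 0.47 (interval -0.64 to 1.57). Ly6g had 2 to 23 counts and was not tested, while 8 neutrophil transcripts summed to 926 to 3213 RPM. Lypd6 and Ly6h reached at most 5 counts. Lypd1, Lypd3, Lypd5 and Ly6f stayed at 3 or below, and Lypd4 had no counts.

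**Figure D4:**
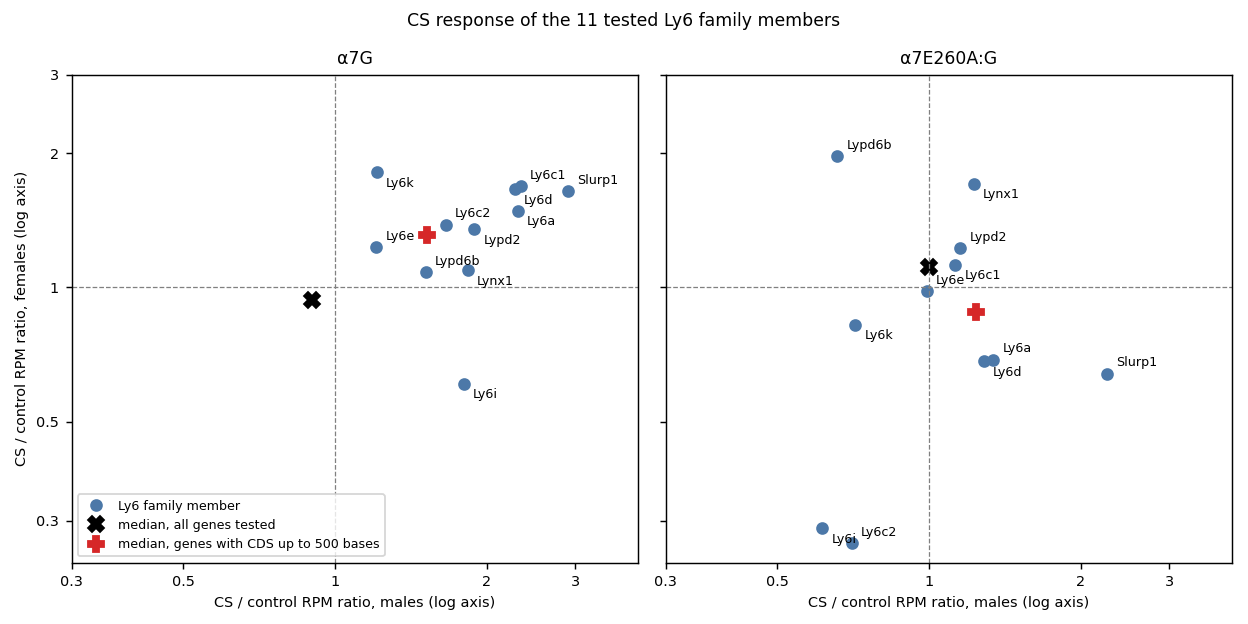
Ratio of CS to control in RPM for the 11 tested Ly6 genes (points), males on the x axis and females on the y axis, both logarithmic, in α7G (left) and α7E260A:G (right). Crosses are medians over all genes tested and over genes with a CDS of up to 500 bases, with 0.5 RPM added. In α7G 10 points lie above 1 in both sexes, around the short-CDS median of 1.52 and 1.31.

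Ly6c2 and Ly6i had the largest fitted differences of the CS response between genotypes among the 16 genes. Ly6c2 read 52.6 and 54.1 RPM in the α7G controls and 87.3 and 74.8 RPM with CS, in males and females. In α7E260A:G it read 38.6 RPM in the control male, 169 in the control female, 27.2 in the CS male and 45.0 in the CS female. The control female thus lay far above every other library. The difference of the CS response had a log2 value of -2.41 (interval -4.66 to -0.16) and an adjusted p of 1.00 by edgeR. Without the α7E260A:G control male, Ly6c2 was the only 1 of the 16 called for CS in α7E260A:G, where it fell by 2.43 (adjusted p = 0.00722, with 1.04% of all genes called), and for the difference of the responses, -3.17 (adjusted p = 0.0129, with 0.711% of all genes called). Without the control female the CS value was 0.07. Ly6i was in the same library at 20.7 RPM, against 4.49 to 12.8 RPM in the other 7. In that library the monocyte list summed to 867 RPM, against 633 to 1558 RPM in the others, and the T cell list to 759 RPM, against 413 to 802 RPM. The neutrophil list was higher there than in any other library, at 3213 RPM against 926 to 2604 RPM. Of its genes, S100a8 and S100a9 were highest there, at 1193 and 1567 RPM. Camp, Ngp, Retnlg, Csf3r, Cxcr2 and Mmp8 were each higher in another library. Of the monocyte list, Fcgr4 was highest there, at 216 RPM against 95.3 to 207 RPM, but Ccr2, Csf1r, F13a1, Cx3cr1 and Ms4a4c were not. The part of these cells in the Ly6c2 and Ly6i values was not tested.

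Of the wider Ly6/uPAR family, a list of 21 genes, 6 could be tested and none was called between genotypes or for CS in α7G. All 6 had a higher fitted value with CS in α7G (median log2 value 0.88), in a fit without the length offset. In RPM, Ly6g6d, Cd59a, Plaur and Gpihbp1 were higher with CS in both sexes of α7G, as were 26.4% of all genes tested. Ly6g5b was lower with CS in α7G males and Psca, with 0 to 4 counts in the α7G libraries, in α7G females. Plaur, the urokinase receptor, was the most abundant at 184 to 421 RPM. Of 30 genes for choline handling and the assembly of cholinergic synapses, 20 were tested and none was called. Their median log2 values were -0.011 between genotypes and -0.0046 for CS in α7G, with 10 and 9 of the 20 genes higher.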

How the data were processed

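The authors prepared stranded poly(A) RNA-Seq libraries, aligned reads with STAR to the mm9 (NCBIM37) genome build and counted reads on the CDS of GENCODE M1 genes with HTSeq. The deposited values are raw counts per gene. Aligner settings and versions are not given in the sources used here. All 22756 identifiers were matched to GENCODE M1, which gave coordinates and CDS lengths.

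Groups, sex and exposure came from the labels. RPM were computed from total counts, and RPKM from these and the CDS length. Counts were tested with edgeR 4.0.16 (glmQLFit and glmQLFTest, TMM, Benjamini-Hochberg, limma 3.58.1, R 4.3.3) with the 4 groups as the model and sex left out of it, on 13637 genes whose mean count was 10 or more. The authors' own filter, a mean of 200, was an alternative, since it would leave 6 of the 44 genes. The common dispersion was 0.106. The p-values measure the spread between libraries, and each group has 2. For the length offset, the log2 deviations of a library were smoothed against log2 CDS length by lowess with a span of 0.667. Other alternatives were DESeq2 1.42.0, library size scaling, all genes with at least 1 count, sex as a replicate block, fits within a genotype, and each library left out. The tests were tried on simulated counts. Scripts used Python 3.11.15 with pandas 2.3.3 and numpy 2.4.6. The sum of 1 marker list is not reported here. Every member is named, and those that passed this minimum are given with full values. The symbol rule uses no measured values, but the family and the lists were chosen with earlier results of these data known. Sequences are from GENCODE M1 transcripts, and protein sequences were not used here. Limits from counting cover counting error only.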

Additional observations from a re-analysis of the deposited data

Results flagged for a closer look

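Over the 32 sets of 4 libraries of a genotype that were examined for the 16 tested genes, 1 held a library far from the others by Dixon's criterion, and chance gives about 1 in 20. It was Ly6c2 at 168.7 RPM in the α7E260A:G control female, where the gap to the next library was 0.874 of the range of the 4 α7E260A:G libraries. In this library genes with a CDS of up to 500 bases had a median log2 deviation of 0.635, the highest of the 8, and the part of this in the Ly6c2 value was not tested.

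In RPM, for 4 genes, Ly6c2, Ly6e, Ly6k and Ric3, both sexes read higher with CS in one genotype and lower in the other. The share of all genes tested with such opposite directions was not computed. In both sexes of α7G 26.4% of all genes tested were higher with CS and 43.7% lower, and in α7E260A:G 33.5% and 19.4%. The fitted log2 difference of the CS response, α7E260A:G minus α7G, was -2.41 for Ly6c2, -0.528 for Ly6e, -1.19 for Ly6k and 1.69 for Ric3. All 4 had an adjusted p of 1.00 with edgeR. The 95% interval excluded 0 for Ly6c2 (-4.66 to -0.16, unadjusted p = 0.0390) and included it for the other 3. With the length trend removed the opposite directions did not hold for Ly6e, which was then lower with CS in both sexes of α7G and higher in α7E260A:G females, nor for Ly6k, which was lower with CS in α7G males. The fitted difference was then 0.051 for Ly6e and -0.596 for Ly6k. For Ly6e the steps in α7E260A:G were small, with ratios of CS to control of 0.989 in males and 0.981 in females.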

How the results depend on the processing

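None of the 16 genes was called in any comparison under DESeq2, library size scaling, the lower and the higher count filter, or sex as a replicate block, and counts over all genes moved more. The higher filter left only 6 of the 16 to test. Between genotypes, with 13 genes called in all, DESeq2 called 516, a minimum of 1 count 69, a mean of 200 6, sex as a replicate block 43, the length offset 485 (2 members) and the block with the offset 714 (3 members). For CS over both genotypes the 0 calls became 68 with DESeq2, 1 with a minimum of 1 count, 3 with the offset and 4 with the block and offset. For CS in α7G they became 25 with DESeq2 and 980 (4 members) with only its 4 libraries. For CS in α7E260A:G the single call became 35 with DESeq2, 3 with a minimum of 1 count, 2 with the offset with or without the block, and 0 with library size scaling, a mean of 200, the block alone or only its 4 libraries. For the difference of the responses 0 became 7 with DESeq2 and 1 with the offset. The cause was not tested.

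Leaving out each library in turn gave 0 to 3 members and 1 to 646 genes between genotypes, 0 to 100 genes for CS over both genotypes, 0 to 1 members and 0 to 142 genes for CS in α7E260A:G, and 0 to 1 members and 0 to 97 genes for the difference. The lone library of an arm was then assumed to vary like the others. The 3 members that did not overlap between genotypes became 1 with TMM-scaled RPM, where 7.5% of all genes tested did not overlap. With a library left out they became 3 to 6, and the 0 between exposures became 0 to 2. Fewer libraries make non-overlap easier for any gene, and the share of all genes was not computed there. The counts with a library left out are therefore not read as a result about the members. The 10 Ly6 genes higher with CS in both sexes of α7G became 6 with the length trend removed, a scale added after the data were examined.

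Some log2 values near 0 changed sign. Between genotypes Ly6a was 0.016 with DESeq2, Ly6c2 -0.103 with library size scaling, -0.166 with the block, -0.052 with the offset and -0.10 with both, Ly6i -0.018 with library size scaling and Ric3 -0.031 with the block. For CS in α7G the offset, without and with the block, gave -0.196 and -0.186 for Ly6e, -0.318 and -0.328 for Ly6i and -0.023 and -0.063 for Lynx1, and for the difference of the responses 0.051 and 0.052 for Ly6e. With a library left out, the genotype value ran from -0.056 to 0.474 for Chrm3, -0.842 to 0.257 for Chrne, -0.713 to 0.337 for Ly6a, -0.806 to 0.433 for Ly6c2, -0.488 to 0.49 for Ly6i and -0.988 to 0.485 for Ric3. For CS in α7G it ran from -5.12 to 1.73 for Bche, -0.851 to 1.35 for Chrne and -0.417 to 0.75 for Ly6i. For CS in α7E260A:G it ran from -1.09 to 1.04 for Ly6a, -0.321 to 0.566 for Ly6c1, -2.43 to 0.066 for Ly6c2, -1.005 to 0.798 for Ly6d, -0.479 to 0.344 for Ly6e, -2.27 to 1.34 for Ly6k and -0.425 to 0.79 for Lypd2. For the difference it ran from -2.07 to 0.071 for Ly6a, -3.02 to 0.585 for Ly6k and -1.21 to 0.01 for Lypd2.

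Libraries of the same sex carry no other label that pairs them across groups. Their deviations correlated between groups at -0.0184 to 0.587 over genes, with 3 of the 6 correlations above 0.1, so the replicate block was kept as an alternative, and alone it changed no call among the 16 genes. With 2 libraries per group and few counts the intervals are wide, as for Chrne, whose genotype interval of -1.81 to 0.84 in log2 units leaves a fall or a rise undetected at this depth.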

Other observations

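RefSeq promoter windows (GRCm38.p6, 250 bases before to 50 after the start) were matched for 28 of the 44 genes and for 6 of the 16 tested ones, Ly6c1 and Ly6c2 among them. They were searched on both strands for GAS (TTCNNNGAA) and ISRE, motifs known from interferon-responsive genes. Neither was found in the windows of the 6 tested genes, where 8.30% of all 32851 windows hold GAS and 3.44% hold ISRE. GAS was found in the windows of Chrna5, and ISRE in that of Chrm5.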
